A study of Mus musculus with 21 samples.

Results

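Genes that mark the mesangium and the juxtaglomerular apparatus of the mouse kidney were followed across healthy and nephritic glomeruli. They were taken from a list of names, by matching the Ensembl identifiers in the deposited tables to mouse symbols, and they are 10 of 35598 genes in each table. The list holds the platelet-derived growth factor (PDGF) receptors Pdgfrb and Pdgfra, the mesangial genes Itga8, Gata3 and Serpine2, the renin cell genes Ren1 and Akr1b7, and the pericyte and filament genes Cspg4, Des and Rgs5.

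Mesangial cells sit between the capillary loops of the glomerulus, hold them together and contract like smooth muscle, and PDGF-B from the endothelium acting on PDGF receptor beta recruits them during development. Renin cells lie in the wall of the afferent arteriole at the vascular pole, share a stromal origin with mesangial cells and smooth muscle, and release renin, the protease that starts the angiotensin cascade. In antibody-driven glomerulonephritis the mesangium can proliferate, change its contractile programme or be lost, and renin production follows pressure, salt and cyclic AMP signals.

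The series examined Epac1, a cyclic AMP-activated exchange factor encoded by Rapgef3, in podocytes during glomerulonephritis. Glomeruli were cut from frozen kidney sections by laser microdissection, and their polyadenylated RNA was read near its 3' ends, in 21 libraries from female mice aged 3 months. All animals carried the floxed allele (Epac1fl/fl). Littermates without Cre are called flox here, and mice that also carried a Cre recombinase active in podocytes are called cKO. Control mice received PBS. The others received decomplemented nephrotoxic serum into a vein on each of 2 days in a row and were killed at day 4 (early, D4) or day 11 (established, D11). There were 3 flox PBS, 3 cKO PBS, 3 flox D4, 4 cKO D4, 4 flox D11 and 4 cKO D11 libraries. The labels number the libraries within a group and do not say whether each came from its own mouse, so p-values measure the spread between these libraries. The deletion was directed at podocytes, and the cells that the 10 genes mark keep the floxed allele as far as the labels say.

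The smallest library held 4550550 reads and the largest 24295712 (median 19470098), and between 7871 and 13006 genes had a read. A single ribosomal RNA gene, CT010467.1, took 14.9% to 39.5% of the reads of a library, the most in cKO D11 replicate 4. The libraries cKO D4 replicate 3, with the fewest genes detected, and cKO D11 replicate 3, with the fewest reads, stood apart, and results are also given without them as an alternative chosen after seeing the data. Rapgef3 ran from 124.3 to 346.6 CPM (reads of the gene scaled to a common library size) in the 10 flox libraries and from 63.4 to 199.5 CPM in the 11 cKO libraries, with group means of 190.8 to 270.2 CPM and 119.9 to 176.9 CPM. Reads near the end of a transcript may come from exons that the Cre leaves in place, so this level is no check of the deletion. Podocyte and endothelial markers were abundant: 10 podocyte genes summed to 3851 to 8621 CPM and 10 endothelial genes to 3100 to 7172 CPM per library. Tubule was present too, since 10 proximal tubule genes summed to 506.2 to 6108 CPM and 10 distal nephron genes to 333.7 to 3685 CPM. The defining mesangial and renin genes were all detected, with Pdgfrb, Itga8, Gata3, Serpine2 and Ren1 read in 21 of 21 libraries and Akr1b7 in 18 of 21.

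Ren1 and Itga8 were lower in cKO than in flox glomeruli at each stage by their fitted values, Serpine2 was higher and Rgs5 lower at D11 than under PBS, and Gata3 was lower at D4. Averaged over the stages, Ren1 in cKO was 0.56 times and Itga8 0.63 times the flox level. At D11, averaged over the genotypes, Serpine2 stood at 1.49 times and Rgs5 at 0.47 times the PBS level, and at D4 Gata3 stood at 0.53 times it. None of these differences passed the test over all genes with edgeR, whose threshold was an adjusted p under 0.05. Of the 10 genes, 0 were called in any of 13 comparisons, with all libraries or without the 2 that stood apart. With all libraries, between 0% and 0.122% of all 13898 genes tested were called per comparison. On simulated counts for D11 against PBS, this procedure recovered 1% of 96 genes changed 2-fold and 7.1% of 98 changed 4-fold. A gene that was not called may therefore still have changed. The plot of CPM by library and the plot of fold changes with their intervals show all 10 genes. In these bulk samples fewer cells of a type and less RNA per cell cannot be told apart.

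**Figure D1:**
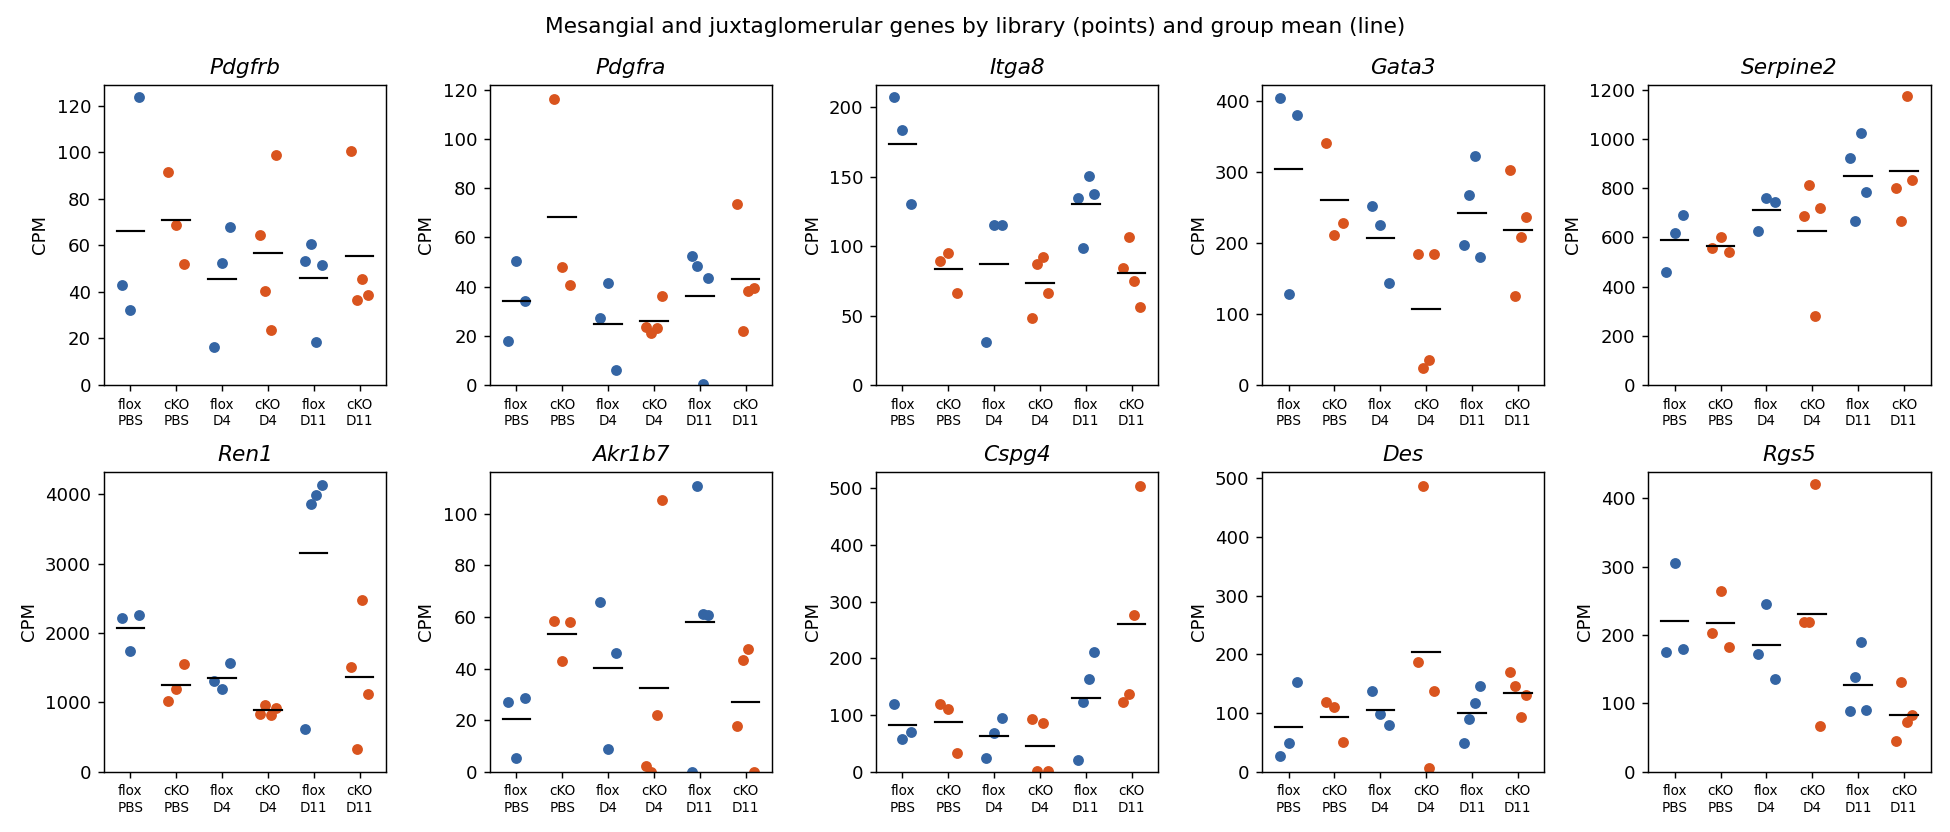
Level of each gene in CPM (vertical axes, each from 0 and on its own scale) in every library, with flox in blue and cKO in orange, by genotype and stage. Points are libraries and black lines are group means. Of the 4 flox D11 libraries, 3 lie between 3855 and 4135 CPM of Ren1 and the other at 620.1 CPM, while the 4 cKO D4 libraries lie between 812.8 and 967.9 CPM.

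**Figure D2:**
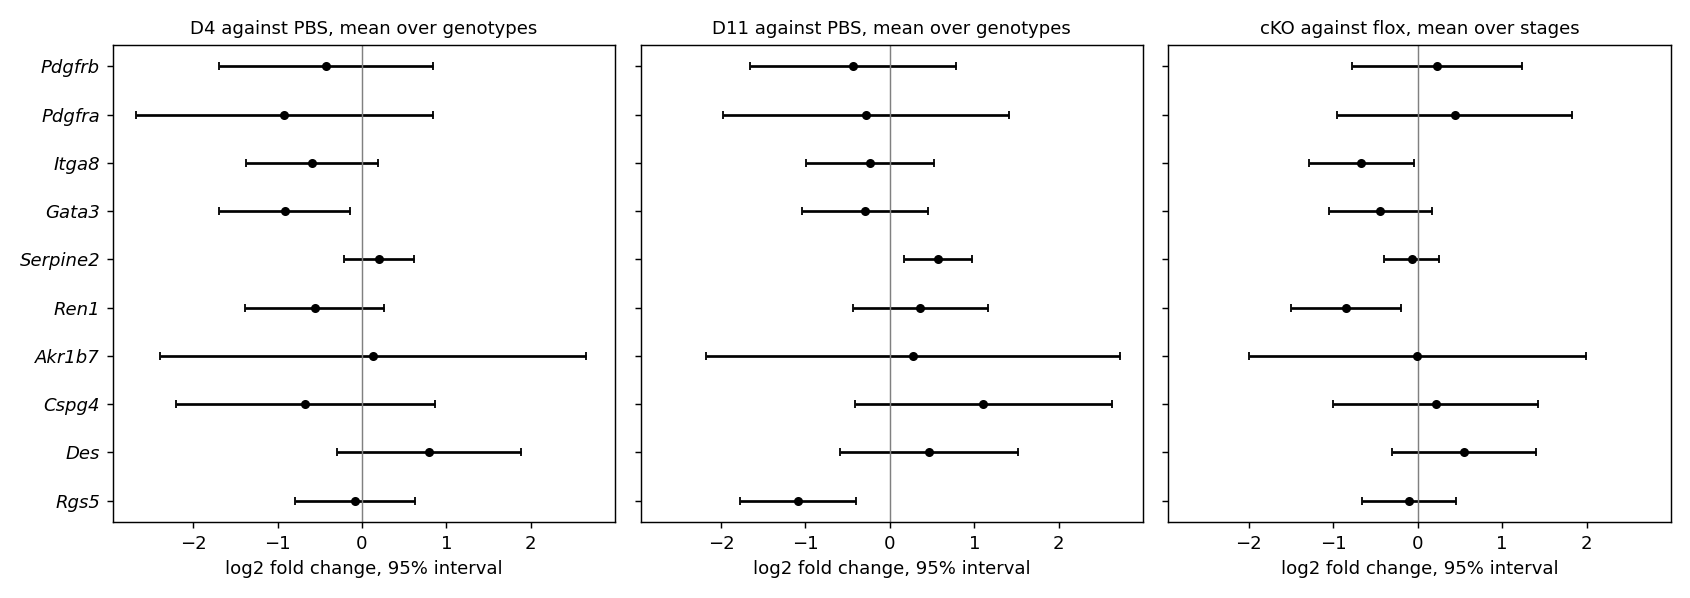
Log2 fold change (points) with 95% intervals (bars) of each gene for D4 against PBS, D11 against PBS and cKO against flox, from the edgeR model of all 21 libraries. The intervals of Gata3 at D4, Serpine2 and Rgs5 at D11, and Itga8 and Ren1 between genotypes lie to one side of 0, and none of these passed the adjustment over all genes.

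The PDGF receptors showed no called difference. Pdgfrb (ENSMUSG00000024620.11, GRCm38 chromosome 18, 61045150 to 61085061, plus strand) encodes the receptor for PDGF-B on mesangial cells and pericytes. Its level was 42.8, 32.1 and 123.5 CPM in flox PBS and 91.5, 68.6 and 51.9 CPM in cKO PBS. At D4 it ran from 16.2 to 67.7 CPM in flox and from 23.6 to 98.8 CPM in cKO, and at D11 from 18.3 to 60.4 CPM in flox and from 36.7 to 100.7 CPM in cKO. All 6 groups overlapped, and the spread within a group was as wide as that between groups. Its log2 fold change was −0.43 ± 0.62 (SE; 95% interval −1.70 to 0.84; adjusted p = 1 by edgeR) at D4, averaged over genotypes. It was −0.44 ± 0.60 (−1.66 to 0.78; adjusted p = 1) at D11, and 0.23 ± 0.49 (−0.77 to 1.23; adjusted p = 1) for cKO against flox. Without flox PBS replicate 3, the library at 123.5 CPM, the D4 value was −0.014, the D11 value −0.018 and the genotype value 0.503. The comparisons of D4 and of D11 with PBS use the same PBS libraries.

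Pdgfra (ENSMUSG00000029231.15, chromosome 5, 75152292 to 75198215, plus strand) encodes the alpha receptor, which is known from interstitial fibroblasts and part of the mesangium. Under PBS its mean was 34.1 ± 16.3 CPM in flox mice and 68.3 ± 41.7 CPM in cKO mice (SD, 3 libraries each). At D4 the means were 24.9 ± 17.7 CPM in flox (n = 3) and 26.1 ± 6.92 CPM in cKO (n = 4), and at D11 36.3 ± 24.2 CPM in flox and 43.2 ± 21.7 CPM in cKO (n = 4 each). The 4 cKO D4 libraries, at 23.6, 21.1, 23.4 and 36.3 CPM, all lay below the 3 cKO PBS libraries, at 116.2, 48.1 and 40.5 CPM. A flox D11 library, replicate 3, had 0.333 CPM while the other 3 had 43.5 to 52.6 CPM. Its log2 fold change was −0.92 ± 0.86 at D4 (95% interval −2.68 to 0.84; adjusted p = 0.96), −0.29 ± 0.83 at D11 and 0.44 ± 0.68 for cKO against flox (adjusted p = 1 each). The D11 value turned to 0.03 without cKO PBS replicate 1. Over the 10 fibroblast genes of a separate list, the summed level ran from 847.6 to 1645 CPM under PBS and from 892.3 to 2651 CPM at D11, and its part in the Pdgfra values was not tested.

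Of the 10 genes, Itga8 had the smallest p between genotypes under PBS. Itga8 (ENSMUSG00000026768.10, chromosome 2, 12106632 to 12301922, minus strand) encodes the integrin alpha8 chain, a matrix receptor of mesangial cells. It was at 207.4, 183.7 and 130.7 CPM in flox PBS and at 89.5, 95.2 and 66.6 CPM in cKO PBS, and these groups did not overlap. At D4 flox libraries had 31.1, 115 and 115.2 CPM, all below flox PBS, and cKO libraries had 48.1, 87, 91.9 and 66.0 CPM. At D11 flox libraries had 134.8, 98.5, 150.8 and 137.9 CPM, and cKO libraries had 84.3, 106.7, 75.0 and 56.4 CPM, with overlap of a single cKO library. Flox PBS was thus the highest group, followed by flox D11, and the other groups had means between 73.3 and 87.1 CPM that did not differ beyond their spread. Between genotypes the log2 fold change was −0.67 ± 0.30 averaged over stages (SE; 95% interval −1.28 to −0.05; adjusted p = 0.7), and −1.05 ± 0.57 under PBS (adjusted p = 0.73). In flox, D4 against PBS gave −0.998 ± 0.57 (adjusted p = 0.63). Averaged over genotypes, D4 gave −0.60 ± 0.38 (adjusted p = 0.74) and D11 −0.24 ± 0.37 (adjusted p = 1). The difference between the D4 responses of the genotypes was 0.80 ± 0.77 (cKO minus flox; adjusted p = 1). Over the 21 libraries, log2 Itga8 had a Pearson r of −0.55 with the mean log2 level of the proximal tubule list. With that level as a covariate, the Itga8 log2 fold change between genotypes was −0.58 averaged over stages (adjusted p = 0.93) and −0.84 under PBS (adjusted p = 1).

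Gata3 (ENSMUSG00000015619.10, chromosome 2, 9857078 to 9890034, minus strand) encodes a zinc-finger transcription factor of mesangial cells that the collecting duct also makes. Under PBS it was at 403.9, 127.9 and 381.1 CPM in flox and at 341, 211.8 and 228.1 CPM in cKO. At D4 the values were 252.5, 225.9 and 144.2 CPM in flox and 184.3, 24.4, 35.1 and 184.5 CPM in cKO. The cKO D4 libraries all lay below the cKO PBS libraries and fell into a pair near 184 CPM and a pair under 40 CPM. By D11 the mean was 241.8 ± 65.7 CPM for flox and 218.6 ± 73.6 CPM for cKO (SD, 4 libraries each), inside the range of the PBS libraries. At D4, averaged over genotypes, the log2 fold change was −0.92 ± 0.38 (SE; 95% interval −1.69 to −0.14; adjusted p = 0.43), and within cKO it was −1.28 ± 0.52 (adjusted p = 0.6). It was −0.29 ± 0.37 at D11 (adjusted p = 1) and −0.44 ± 0.30 for cKO against flox over the stages (adjusted p = 1), with −0.95 ± 0.52 at D4 (adjusted p = 0.72). The 2 low libraries, cKO D4 replicates 2 and 3, were also those with the fewest genes detected, 9032 and 7871, and Gata3 had an r of 0.61 with that number over 21 libraries. Without cKO D4 replicate 3 and cKO D11 replicate 3, the D4 value was −0.77 averaged over genotypes and −0.99 within cKO (adjusted p = 0.52 and 0.7). The part of the number of genes detected in the Gata3 values was not tested otherwise. The Gata3 and Itga8 loci overlap other annotated genes, and how shared reads were counted is not given in the sources used here.

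Serpine2 (ENSMUSG00000026249.10, chromosome 1, 79794197 to 79861180, minus strand) encodes protease nexin-1, an inhibitor of thrombin and plasminogen activators that mesangial cells secrete. Its libraries lay at 459.9, 617.4 and 689.5 CPM in flox PBS and at 556.2, 602.7 and 539.4 CPM in cKO PBS. At D4 they lay at 625.6, 759.9 and 743.3 CPM in flox and at 687.4, 811, 279.5 and 718 CPM in cKO. At D11 they lay at 923.5, 666.3, 1024 and 784.5 CPM in flox and at 799.4, 666.3, 1174 and 831.8 CPM in cKO. Each cKO D11 library lay above each cKO PBS library, while in flox the 2 groups overlapped by a single D11 library. The 2 D11 groups had the highest means, 849.5 ± 156.6 CPM for flox and 867.8 ± 216.2 CPM for cKO (SD, 4 libraries each), and did not differ beyond their spread. The log2 fold change at D11 was 0.57 ± 0.20 averaged over genotypes (SE; 95% interval 0.17 to 0.98; adjusted p = 0.34), with 0.53 ± 0.28 in flox (adjusted p = 0.58) and 0.62 ± 0.28 in cKO (adjusted p = 0.81). At D4 it was 0.20 ± 0.20 (adjusted p = 0.97). Between genotypes it was −0.07 ± 0.16 (95% interval −0.40 to 0.26; adjusted p = 1), which turned to 0.01 without cKO D4 replicate 3, the library at 279.5 CPM. Over the 21 libraries Serpine2 had an r of −0.43 with the mean log2 level of the proximal tubule list. With that level as a covariate, its D11 log2 fold change averaged over genotypes was 0.47 (adjusted p = 0.52).

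Ren1 (ENSMUSG00000070645.5, chromosome 1, 133350510 to 133360325, plus strand) encodes renin. Akr1b7 (ENSMUSG00000052131.7, chromosome 6, 34412334 to 34423142, plus strand) encodes an aldo-keto reductase made beside renin in juxtaglomerular cells. Promoter sequence of both, and of the pericyte gene Rgs5, is shown so that the promoters of the members whose levels are described in most detail can be read side by side. All are RefSeq promoters on GRCm38.p6, plus strand, 5′ to 3′, and capitals mark a TATA box (TATAAA) in Ren1 and a GATA motif (AGATAA, on the minus strand as TTATCT) in Rgs5. For Ren1 30 bases around the TATA box are given, which lie before the RefSeq start but inside the first exon as GENCODE M21 places it, and so inside the gene span above. The stretches of 222 bases for Akr1b7 and 250 bases for Rgs5 lie outside annotated exons.
Ren1, chr1:133350633-133350662: atacatggtgtgTATAAAagaaggctcagg
Akr1b7, chr6:34412112-34412333: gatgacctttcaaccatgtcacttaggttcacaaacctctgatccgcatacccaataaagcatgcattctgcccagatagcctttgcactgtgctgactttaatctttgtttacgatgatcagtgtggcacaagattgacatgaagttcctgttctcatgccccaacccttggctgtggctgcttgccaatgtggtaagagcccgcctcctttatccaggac
Rgs5, chr1:169655251-169655500: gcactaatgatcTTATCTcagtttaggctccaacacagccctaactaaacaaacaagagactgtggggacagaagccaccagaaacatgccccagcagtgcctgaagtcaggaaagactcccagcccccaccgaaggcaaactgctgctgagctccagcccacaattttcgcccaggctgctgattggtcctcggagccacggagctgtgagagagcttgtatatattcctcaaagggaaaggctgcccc

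The Ren1 TATA box lay 29 to 24 bases before the RefSeq start, and a PBX-HOX element (TGATTNAT, on the minus strand as ATAAATCA) lay 63 to 56 bases before it. Searched on both strands over 250 upstream bases, TATAAA was found in 12.4% and TGATTNAT in 2.82% of 32851 RefSeq promoters. The cyclic AMP response half-site TGACG was found in 17.8%, AGATAA in 9.99% and the serum response CArG box in 1.47% of them. Of the 9 genes with a promoter in the table, Pdgfra held a TGACG match (on the minus strand as CGTCA, 218 to 214 bases before the start), and the Rgs5 match lay 238 to 233 bases before the start. A match describes these letters only and is not a measured binding site.

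Of the 10 genes, Ren1 had the lowest level in cKO relative to flox, averaged over stages. Ren1 was at 2211, 1734 and 2256 CPM in flox PBS and at 1027, 1194 and 1552 CPM in cKO PBS, without overlap. At D4 it was at 1307, 1191 and 1562 CPM in flox and at 831.4, 967.9, 812.8 and 925.8 CPM in cKO, again without overlap, and in each genotype the D4 libraries lay below all PBS libraries. At D11 flox libraries had 620.1, 3855, 3989 and 4135 CPM and cKO libraries 1514, 333.5, 2474 and 1126 CPM. These D11 groups overlapped only through flox replicate 1, since the other 3 flox libraries lay above every other library of the study. The order of the group means was flox D11 at 3150 ± 1690 CPM (SD, n = 4; 3993 ± 140 CPM over 3 libraries without replicate 1), flox PBS at 2067 ± 289.1, cKO D11 at 1362 ± 889.3, flox D4 at 1353 ± 189.6, cKO PBS at 1258 ± 268.2 and cKO D4 at 884.5 ± 74.4. The 3 middle groups, cKO D11, flox D4 and cKO PBS, did not differ beyond their spread.

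Between genotypes the log2 fold change of Ren1 was −0.85 ± 0.31 averaged over stages (SE; 95% interval −1.50 to −0.20; adjusted p = 0.58), so the difference was not called over all genes. By stage it was −0.72 ± 0.57 under PBS and −0.61 ± 0.53 at D4 (adjusted p = 1 each), and −1.21 ± 0.50 at D11 (adjusted p = 0.84). The D11 value was −1.55 without flox D11 replicate 1, −0.88 without cKO D11 replicate 2, the library at 333.5 CPM, and −1.67 without the 2 libraries that stood apart (adjusted p = 0.96). Averaged over genotypes, D4 against PBS gave −0.56 ± 0.39 (adjusted p = 0.8), D11 against PBS 0.36 ± 0.38 (adjusted p = 1; 0.13 without the 2 libraries that stood apart) and D11 against D4 0.92 ± 0.37 (adjusted p = 0.46). The genotypes' responses differed by 0.10 ± 0.78 at D4 and by −0.49 ± 0.75 at D11 (cKO minus flox; adjusted p = 1 each).

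The flox D11 library with low renin also differed from the other 3 in some marker lists. Its smooth muscle and pericyte list summed to 2971 CPM against 3632 to 4553 CPM in the other 3, and its fibroblast list to 892.3 CPM against 1864 to 1981 CPM. Its podocyte list summed to 8129 CPM against 4988 to 6058 CPM. Its lists of parietal, serine protease, other mesangial and PDGF genes were also the lowest of its group. Its endothelial, proximal tubule, distal nephron and renin-angiotensin lists were the highest. Its renin cell regulators, at 1755 CPM against 1588 to 2013 CPM, lay inside the range of the others. So did its macrophage list, at 564.6 CPM against 215.9 to 699 CPM. Renin cells lie at the vascular pole, and how much arteriole each dissected outline held is not recorded in the labels. Over 21 libraries Ren1 had an r of −0.46 with the proximal tubule list. With that list's mean level as a covariate, its log2 fold change between genotypes was −0.74 averaged over stages (adjusted p = 0.74) and −1.09 at D11 (adjusted p = 0.98). A near-identical copy of Ren1 exists in some mouse strains, and the strain is not given in the sources used here, so the gene's count may include reads of such a copy.

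Akr1b7 varied widely, from no read to 110.8 CPM in a library. It was at 27.1, 5.42 and 28.6 CPM in flox PBS and at 58.5, 42.9 and 58.2 CPM in cKO PBS, without overlap and in the direction opposite to Ren1. The fitted log2 fold change for cKO against flox under PBS was 1.385 ± 1.84 (SE; 95% interval −2.37 to 5.14), and it was not called. At D4 it was at 65.8, 8.72 and 46.1 CPM in flox and at 2.05, 0, 21.9 and 105.5 CPM in cKO. At D11 it was at 0, 110.8, 61.1 and 60.7 CPM in flox and at 17.8, 43.3, 47.7 and 0 CPM in cKO. The libraries with no read number 3, where 0 reads allow up to 0.155 CPM in cKO D4 replicate 2, 0.195 CPM in flox D11 replicate 1 and 0.35 CPM in cKO D11 replicate 4, for counting error only. The flox D11 library with no Akr1b7 was the one with low Ren1, as the plot of both genes shows. The log2 fold change was 0.13 ± 1.24 at D4, 0.27 ± 1.203 at D11 and −0.01 ± 0.98 for cKO against flox (95% interval −2.004 to 1.99; adjusted p = 1 each). Without single libraries the D4 value ran from −0.88 (without cKO D4 replicate 4) to 0.38 and the genotype value from −0.68 (without cKO D4 replicate 4) to 0.17 (without flox D4 replicate 1), so both signs turned. The difference between the D11 responses was −2.48 ± 2.43 (cKO minus flox; adjusted p = 1). Akr1b7 has close paralogs, and reads shared with them may have been split.

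**Figure D3:**
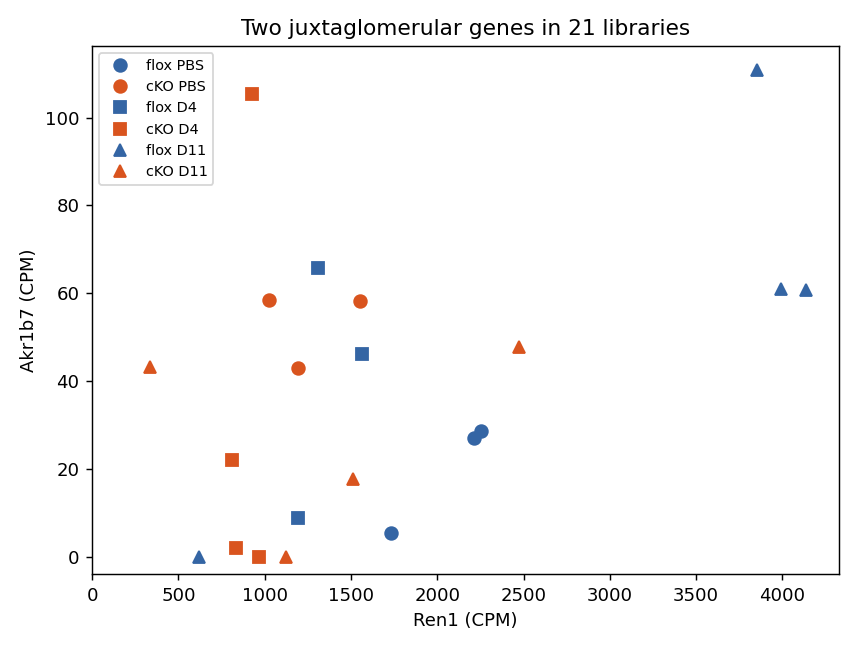
Akr1b7 (vertical axis, CPM) against Ren1 (horizontal axis, CPM) in the 21 libraries, with color for genotype and symbol for stage. Of the 4 flox D11 libraries, 3 lie far to the right at 3855 to 4135 CPM of Ren1 with 60.7 to 110.8 CPM of Akr1b7, and the other lies at 620.1 CPM with no Akr1b7 read.

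Of the pericyte and filament genes, Rgs5 was lower and Cspg4 higher at D11 than under PBS by their fitted values, and Des spread most widely in cKO D4. Rgs5 (ENSMUSG00000026678.10, chromosome 1, 169655501 to 169695813, plus strand) encodes a brake on G protein signalling in pericytes and arteriolar smooth muscle. Under PBS it was between 175.5 and 305.7 CPM in the 3 flox libraries (mean 220 ± 74.2, SD) and at 203, 264.5 and 183 CPM in cKO. At D4 it was at 172.8, 246 and 135.5 CPM in flox and at 219.2, 219.5, 420 and 66.2 CPM in cKO. At D11 it was at 89.6, 138.1, 189.9 and 91.0 CPM in flox and at 45.5, 130.9, 72.8 and 83.2 CPM in cKO. Each cKO D11 library lay below each cKO PBS library, and in flox 3 of 4 D11 libraries lay below all PBS libraries. Averaged over genotypes, the D11 log2 fold change was −1.09 ± 0.34 (SE; 95% interval −1.77 to −0.40; adjusted p = 0.33), with −0.79 ± 0.47 in flox (adjusted p = 0.66) and −1.38 ± 0.48 in cKO (adjusted p = 0.81), and D11 against D4 gave −1.01 ± 0.32 (adjusted p = 0.38). At D4 it was −0.08 ± 0.35 (adjusted p = 1), a value that turned above 0 without flox PBS replicate 2 (0.08), cKO PBS replicate 2 (0.01) or cKO D4 replicate 4 (0.08). Between genotypes it was −0.10 ± 0.28 (95% interval −0.66 to 0.46; adjusted p = 1), and −0.001 without flox PBS replicate 2. The D11 responses of the genotypes differed by −0.59 ± 0.67 (cKO minus flox; adjusted p = 1). Over the 21 libraries Rgs5 had an r of 0.405 with the mean log2 level of the proximal tubule list. With that level as a covariate, its log2 fold change averaged over genotypes was −0.945 at D11 against PBS (adjusted p = 0.41). For D11 against D4 it was −0.72 (adjusted p = 0.96).

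Cspg4 (ENSMUSG00000032911.6, chromosome 9, 56865033 to 56899870, plus strand) encodes the NG2 proteoglycan of pericytes and mesangial cells. Its PBS libraries had 57.3 to 120 CPM in flox and 33.6 to 118.6 CPM in cKO. At D4 flox libraries had 24.4 to 94.8 CPM, and cKO libraries had 93.3, 1.14, 86.3 and 1.74 CPM, a split into 2 near the PBS level and 2 close to 0. At D11 flox libraries had 21.1, 122.4, 163.6 and 210.9 CPM, and cKO libraries 123.4, 136.8, 276.7 and 503.8 CPM, all above the cKO PBS libraries. The highest cKO D11 value came from replicate 4, the library with the largest share of ribosomal RNA reads. The lowest flox D11 value came from replicate 1, the library with low Ren1. At D11 the log2 fold change was 1.11 ± 0.74 (SE; 95% interval −0.42 to 2.63; adjusted p = 0.81), −0.67 ± 0.74 at D4 (adjusted p = 1), and 1.78 ± 0.72 for D11 against D4 (adjusted p = 0.44). For cKO against flox it was 0.21 ± 0.58 (adjusted p = 1), a value of 0.006 without cKO D4 replicate 1 and of the opposite sign under voom (−0.61).

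Des (ENSMUSG00000026208.9, chromosome 1, 75360329 to 75368579, plus strand) encodes desmin, the intermediate filament of mesangial and muscle cells, which injured podocytes also make in rodents. Libraries ran from 27.7 to 153.6 CPM in flox PBS, from 50.4 to 119.6 CPM in cKO PBS, from 79.1 to 138.5 CPM in flox D4, from 49.7 to 146.3 CPM in flox D11 and from 92.9 to 169.7 CPM in cKO D11. The cKO D4 libraries held both extremes of the study, at 187, 487.4, 6.23 and 137.9 CPM. The lowest of them was cKO D4 replicate 3, the library with the fewest genes detected. The log2 fold change was 0.80 ± 0.53 at D4 (95% interval −0.29 to 1.89; adjusted p = 0.77), 0.46 ± 0.52 at D11 (adjusted p = 1) and 0.55 ± 0.42 for cKO against flox (95% interval −0.30 to 1.41; adjusted p = 1). The D4 value was 0.35 without cKO D4 replicate 2, the library at 487.4 CPM, and 0.999 without the 2 libraries that stood apart (adjusted p = 0.41).

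The counts of the 10 genes are set here beside those of all 13898 genes tested. Against PBS within flox, edgeR called 0% of all genes at D4 and 0% at D11, and 0 of the 10. Within cKO it called 0% at D4 and 0.0504% at D11, and again 0 of the 10. For cKO against flox the shares of all genes were 0% under PBS, 0% at D4, 0% at D11 and 0.0072% averaged over stages, with 0 of the 10 called in each. Averaged over genotypes, the shares were 0.0216% at D4, 0.122% at D11 and 0% for D11 against D4, and for the differences between genotypes in response they were 0% at D4 and 0% at D11, with 0 of the 10 in each. At an unadjusted p under 0.05 there were 2 of the 10 (Ren1 and Itga8) for cKO against flox over the stages, where 6.62% of all genes reached it. There was 1 of the 10 (Gata3) at D4, where 9.28% of all genes did, and 2 of the 10 (Serpine2 and Rgs5) at D11, where 9.12% did. For D11 against D4 there were 3 of the 10 (Ren1, Cspg4 and Rgs5), where 8.57% did. Within flox there were 0 at D4 (7.93% of all genes) and 0 at D11 (8.25%). Within cKO there were 1 at D4 (8.16%) and 2 at D11 (6.02%). Between genotypes by stage there were 0 under PBS (6.02%), 0 at D4 (7.42%) and 1 at D11 (5.86%). For the differences between genotypes in response there were 0 at D4 (7.74%) and 0 at D11 (6.94%). DESeq2 called 2 of the 10 at D11 averaged over genotypes, Serpine2 (0.59) and Rgs5 (−1.07, adjusted p = 0.045 each), where it called 8.38% of all genes, and 0 of the 10 elsewhere. Voom called 0 of the 10 in each comparison.

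Groups without overlap were also counted. In flox, 2 of the 10 (Itga8 and Ren1) were lower at D4 than under PBS without overlap, where 10.7% of all genes separated in either direction, and 0 of the 10 separated at D11, against 6.39%. In cKO, 3 of the 10 (Pdgfra, Gata3 and Ren1) were lower at D4, against 6.14%. There, 2 (Cspg4 and Serpine2) were higher and 1 (Rgs5) lower at D11, against 6.78%. Between genotypes under PBS, 1 (Akr1b7) was higher and 2 (Itga8 and Ren1) lower in cKO, against 10.2%. At D4 1 (Ren1) was lower in cKO, against 4.46%, and at D11 0 of the 10 separated, against 2.52%. Ren1 was the gene that separated in 4 of these 7 comparisons, more than any other of the 10. These 4 comparisons reuse the same PBS and D4 libraries, so they are not independent. The share of all genes that separated as often was not counted. As a list, the 10 genes had a median log2 fold change of −0.49 at D4 (3 higher and 7 lower; median of all genes 0.01). At D11 it was 0.02 (5 and 5; all genes 0.07), and for cKO against flox it was −0.04 (4 and 6; all genes 0.01).

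The 10 genes did not vary together across the libraries. Over the 45 pairs of genes the Pearson r of log2 CPM across 21 libraries had a median of 0.02 and ran from −0.60 to 0.67, and 26 pairs were above 0. Desmin and Serpine2 were the most alike by Pearson (0.67), but their Spearman rho was 0.36, and both were low in cKO D4 replicate 3. Pdgfrb and Pdgfra had an r of 0.50, and the renin cell genes Ren1 and Akr1b7 had an r of 0.39 and a rho of 0.45. Serpine2 and Rgs5 ran opposite to each other, at −0.60 and −0.52. All pairs share the same libraries and their depth, so the values are given as a description.

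**Figure D4:**
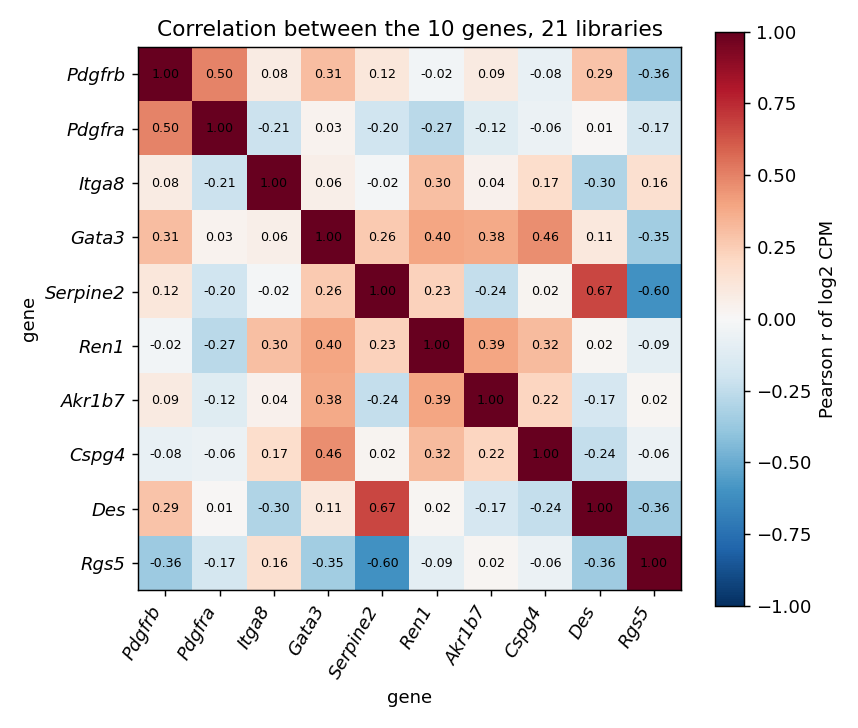
Pearson correlation of log2 CPM between each pair of the 10 genes over 21 libraries, from −1 (blue) to 1 (red), with the value in each cell. Desmin with Serpine2 (0.67) is the highest and Serpine2 with Rgs5 (−0.60) the lowest of 45 pairs.

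Among the 4907 genes whose mean log2 CPM was 5 or more, those whose level over the 21 libraries was most like Pdgfrb were Txnip (r 0.73), Zdhhc4 (0.72), Slc31a2 (0.71), Vcl (0.69) and Pcdhgc4 (0.67). Txnip encodes a thioredoxin-binding protein and Vcl encodes vinculin of cell adhesions. Most like Ren1 were Rxra (0.66), Slc12a2 (0.65), Stab1 (0.62), Usp2 (0.62) and Hif1an (0.62). Rxra encodes a retinoid receptor, and Slc12a2 the sodium-potassium-chloride cotransporter known as NKCC1. No other of the 10 genes was among these nearest genes. By Spearman rho the values ran from 0.47 (Pcdhgc4) to 0.70 (Vcl) for Pdgfrb and from 0.48 (Stab1) to 0.68 (Hif1an) for Ren1. These genes were picked as the highest of 4907 by r over only 21 libraries, and the likeness was not tested.

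The pathways around these genes were described with lists drawn from general knowledge, for D11 against PBS averaged over genotypes, where the median of all genes was 0.07. The lists were chosen with earlier results of these data known, so their counts are a description. In that comparison edgeR called 0.122% of all genes, and 9.12% had an unadjusted p under 0.05. Of the 15 PDGF ligand and signalling genes, 10 were higher and 5 lower with a median of 0.27, and edgeR called 0 (1 of 15 at an unadjusted p under 0.05, against 9.12% of all genes). Pik3r1, the regulatory subunit of PI3-kinase, was at −0.44 ± 0.24 (adjusted p = 0.64), and the immediate early gene Fos had no read in either PBS group and averaged 18.2 ± 20.5 CPM in flox D11 and 10.1 ± 12.6 CPM in cKO D11 (SD, n = 4 each). Of 15 other mesangial genes tested, 8 were higher and 7 lower with a median of 0.08, and 1 was called, the only one of the 15 at an unadjusted p under 0.05. That gene was Cald1, which encodes the actin-binding protein caldesmon of contractile cells, and it rose by 0.90 ± 0.16 (SE; adjusted p = 0.0052). Under PBS Cald1 stood at 1035 ± 217.9 CPM in flox mice and 1162 ± 259.1 CPM in cKO mice (SD, 3 libraries each), and at D11 it stood at 1861 ± 476.7 CPM and 2260 ± 197.5 CPM (4 libraries each). Its call held without each single library and was lost under voom, where its fold change was 0.95 (adjusted p = 0.33). Plac9a was at 1.69 ± 1.13 (adjusted p = 0.81).

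Of the 16 smooth muscle and pericyte genes tested, 10 were higher and 6 lower with a median of 0.42, 6 of 16 had an unadjusted p under 0.05 (against 9.12% of all genes), and 1 was called (against 0.122%). Acta2, the smooth muscle actin that activated mesangial cells are known to make, rose by 1.39 ± 0.28 (SE; adjusted p = 0.029). Its level under PBS was 185.6 ± 86.3 CPM for flox and 202.1 ± 66.4 CPM for cKO, and at D11 401.3 ± 121.1 CPM for flox and 641.8 ± 240.5 CPM for cKO. This call was lost without any 1 of 8 single libraries: flox PBS replicate 1 or 2, cKO PBS replicate 1 or 3, flox D11 replicate 3 or 4, or cKO D11 replicate 2 or 4 (adjusted p = 0.053 to 0.14). Without these libraries in turn its fold change was 1.26 to 1.44. The call was also lost with a proximal tubule covariate, where the fold change was 1.35 (adjusted p = 0.11). Vim, which encodes vimentin, was at 1.52 ± 0.40 (adjusted p = 0.22). The list's summed level was 2925 to 3114 CPM in flox PBS, 2467 to 2675 CPM in cKO PBS, 2971 to 4553 CPM in flox D11 and 4540 to 5050 CPM in cKO D11, so in cKO the groups did not overlap. Much of that rise in the sum came from Acta2 and from Vim, which averaged 311.6 ± 126.2 CPM in cKO PBS and 1011 ± 188.9 CPM in cKO D11. Of the 16 genes tested within cKO, 12 were higher and 4 lower at D11, and 0 were called. Rgs5, which marks the same cells, was lower in those cKO D11 libraries.

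The angiotensin side of the renin cascade showed no called gene. Of 13 renin-angiotensin genes 8 were tested, 2 were higher and 6 lower, and the median was −0.39, with 0 at an unadjusted p under 0.05. Atp6ap2, the prorenin receptor, was at −0.53 ± 0.45 (adjusted p = 0.98) and Enpep, the angiotensin-cleaving aminopeptidase A, at −0.54 ± 0.52 (adjusted p = 1). Of the 20 renin cell regulators and companions, 9 were higher and 11 lower with a median of −0.04, with 0 called and 2 of 20 at an unadjusted p under 0.05, against 9.12% of all genes. Gnas, the stimulatory G protein subunit upstream of cyclic AMP, was at −0.50 ± 0.24 (adjusted p = 0.51). Hoxd10 had no read in flox PBS, 5.17 ± 8.61 CPM in cKO PBS, 26.0 ± 34.1 CPM in flox D11 and 11.2 ± 12.8 CPM in cKO D11. Of 8 serine protease genes around Serpine2, 6 were tested, 4 were higher and 2 lower with a median of 0.44, and 0 were called, with 2 of 6 at an unadjusted p under 0.05 (against 0.122% and 9.12% of all genes). F2r, the thrombin receptor, was at 1.42 ± 0.58 (adjusted p = 0.41).

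Markers of the other cells in the dissected tissue were read in the same comparison. Podocyte genes had a median of −0.50 (2 higher and 8 lower of 10), and 1 was called, Thsd7a, a podocyte membrane protein, which fell by 1.80 ± 0.20 on the log2 scale (adjusted p = 6.8e-06). Ptpro, a podocyte phosphatase, was at −0.91 ± 0.28 (adjusted p = 0.33). Endothelial genes had a median of −0.31 (3 higher and 7 lower of 10), with Ehd3 at −0.55 ± 0.17 and Kdr, the VEGF receptor, at −0.51 ± 0.17 (adjusted p = 0.34 each). Proximal tubule genes had a median of −0.44 (1 higher and 9 lower of 10), with Kap at −2.59 ± 0.84 (adjusted p = 0.34) and Slc27a2 at −0.56 ± 0.43 (adjusted p = 0.91). Distal nephron genes had a median of −0.82 (3 higher and 7 lower of 10), with Slc12a1 at −1.87 ± 0.47 (adjusted p = 0.19) and Calb1 at −1.60 ± 0.68 (adjusted p = 0.43). The macula densa, which meets renin cells at the vascular pole, also makes Slc12a1.

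Fibroblast genes had a median of 1.09 (8 higher and 2 lower of 10), with the collagens Col3a1 at 1.62 ± 0.37 (adjusted p = 0.067) and Col1a2 at 1.04 ± 0.27 (adjusted p = 0.15). Macrophage genes had a median of 1 (8 higher and 2 lower of 10), and Cd74, the invariant chain of antigen presentation, was at 0.87 ± 0.41 (adjusted p = 0.52). Itgam had no read in either PBS group and averaged 0.0889 ± 0.151 CPM in flox D11 and 12.5 ± 14.8 CPM in cKO D11 (SD, n = 4 each). Parietal epithelial genes had a median of 0.92 (6 higher and 2 lower of 8), and Aldh1a2 in flox mice was at 0.147 ± 0.255 CPM under PBS and 23.7 ± 23.1 CPM at D11, while Pax8 averaged 0.0368 ± 0.0638 and 9.37 ± 6.29 CPM. In cKO mice Aldh1a2 was at 7.67 ± 6.71 CPM under PBS and 26.1 ± 7.06 CPM at D11, while Pax8 averaged 14.9 ± 10.04 and 14.6 ± 18.01 CPM. On the lists of the 6 other cell types edgeR called 0 genes, while an unadjusted p under 0.05 was reached by 2 of 10 endothelial, 1 of 10 proximal tubule, 5 of 10 distal nephron, 4 of 10 fibroblast, 3 of 10 macrophage and 2 of 8 parietal genes. On the podocyte list 5 of 10 genes reached it, and of all genes 9.12% did. Apart from the proximal tubule covariate, the part of these markers in the values of the 10 genes was not tested.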

How the data were processed

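The deposited tables, 1 per library, list for each gene an estimated count of reads with no normalization, and a TPM value, per the file headers; the deposited TPM values were not used for any comparison. The submitters' processing notes name the mm10 build and the tools DRAGEN, Picard, fastp and FastQC. Their roles and versions, the strand setting and the treatment of duplicate or shared reads are not given there. Of 35598 identifiers, 35513 (99.8%) matched a symbol in GENCODE M21 and 85 did not, and 95.2% of values above 0 were whole within 0.005.

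Estimated counts were rounded and fitted with edgeR 4.0.16 under R 4.3.3, using its expression filter (filterByExpr, minimum count 10), TMM scaling (factors of 0.751 to 1.12) and the robust quasi-likelihood test, on 6 group means with 15 residual degrees of freedom. All 10 genes passed the filter, which left 13898. P-values were adjusted over all of these by Benjamini-Hochberg, and genes were called at an adjusted p under 0.05. Standard errors are the absolute log2 fold change over the square root of F. Log2 CPM used a prior count of 2. Intervals cover 95%, and floors are 3 counts. Figures were drawn with matplotlib 3.10.9. Tested on simulated counts for D11 against PBS over 13660 genes, the procedure recovered 1% of 96 genes changed 2-fold and 7.1% of 98 changed 4-fold, with 0 false calls. The changed genes were drawn at random from all genes tested and not chosen to be like the 10.

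The members, the 13 gene lists and the tests were chosen with earlier results of these data known. On more than 1 list stand 5 of the genes. Named genes are all 10 members, the member with the smallest p in each other comparison, the 2 genes of each list with the smallest p at D11 averaged over genotypes, any called there, and the 5 genes most like Pdgfrb and Ren1 by Pearson correlation, passing over predicted genes; 1 gene that this rule names is not reported here. Libraries with the same replicate number in different groups did not deviate together (mean r −0.003 over 48 pairs, from −0.05 to 0.03, against 0.001 over 135 pairs with different numbers), so numbers were not used for pairing. Alternatives were DESeq2 1.42.0, limma 3.58.1 voom, size factors by median ratio, a stricter and no low-count filter, removal of a ribosomal RNA gene, a replicate block, a proximal tubule covariate, each library left out, and 1 removal chosen after seeing the data.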

Additional observations from a re-analysis of the deposited data

Results flagged for a closer look

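Within the 30 groups of 4 libraries examined for the 10 genes, 3 libraries lay far from the rest of their group by Dixon's ratio, a rule that chance meets in about 1 of 20 groups. In flox D11, Ren1 was at 620.1 CPM in replicate 1 and at 3855 to 4135 CPM in the other 3 libraries. In cKO D11, Pdgfrb was at 100.7 CPM in replicate 1 and at 36.7 to 45.7 CPM in the others. In cKO D4, Pdgfra was at 36.3 CPM in replicate 4 and at 21.1 to 23.6 CPM in the others.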

How the results depend on the processing

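The 10 genes were read in 3 comparisons and 10 further values, 40 fold changes in all, under 30 alternative settings. Of 1200 such values, 1173 kept their direction and their side of the threshold, and 25 reversed. Under DESeq2 2 of the 10 genes were called at D11 against PBS, Serpine2 (0.59) and Rgs5 (−1.07), and the count of genes called was 0 under each other setting and comparison. Under voom 3 values reversed: Cspg4 between genotypes (−0.61) and Akr1b7 at D4 (−1.44) and at D11 (−1.07). With a proximal tubule covariate Akr1b7 reversed between genotypes (0.078) and at D11 (−0.16). Without single libraries Akr1b7 ran from −0.68 to 0.17 between genotypes and from −0.88 to 0.38 at D4, Rgs5 at D4 from −0.309 to 0.077, Pdgfra at D11 from −0.477 to 0.026 and Serpine2 between genotypes from −0.13 to 0.011. The causes were not tested.

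The replicate block left 0 of the 10 genes called in each comparison and turned Akr1b7 at D4 to −0.51. It moved the calls over all genes from 17 to 10 at D11 against PBS and from 7 to 6 within cKO, and ended the call of Acta2 (adjusted p = 0.19), but same-numbered libraries share only a number.

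Over all genes, D11 against PBS gave 17 calls with edgeR, 39 without the low-count filter, 37 without the 2 libraries that stood apart, 90 with voom and 1164 with DESeq2, and D4 against PBS gave 3, 17, 17, 16 and 1256. Elsewhere DESeq2 called 495 to 1136 genes and voom 3 to 103, against 0 to 7 with edgeR. Outside the 10 genes, DESeq2 also called Fos, Hoxd10, Vim, Ptpro, Pax8, Kap, Slc12a1, Col3a1, Col1a2 and Itgam at D11. Of these, Fos and Itgam had no read in either PBS group and Hoxd10 had none in flox PBS. The size of their fold changes is therefore not set by the counts. Vim was called without cKO D4 replicate 3 (adjusted p = 0.0023), Slc12a1 without cKO D11 replicate 3 (0.0032), and Col3a1 without cKO D4 replicate 3 (0.043), without flox D11 replicate 1 (0.014) or without the low-count filter (0.017). Col1a2 was called without flox D11 replicate 1 (0.027), and Fos under voom (0.014). Single genes varied by a biological coefficient of variation of 0.411 (Serpine2) to 1.41 (Akr1b7), which limits what 3 or 4 libraries a group can show.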
